A study of Mus musculus with 4 samples.

Results

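The interferon-inducible GTPases described here are 10 genes, namely the guanylate-binding protein genes Gbp2, Gbp3, Gbp4, Gbp5 and Gbp7 and the immunity-related GTPase genes Irgm1, Irgm2, Igtp, Iigp1 and Tgtp2. They were taken by symbol from the 31253 genes of the count tables, and each symbol matched 1 row. They were followed by single-cell RNA sequencing in live CD45+ cells of brain hemispheres bearing CT2a glioma, a mouse tumor line, on day 14 after implantation. The 4 WT mice and the 4 CaMKK2 KO mice were on a C57Bl/6 background, and both groups received CT2a cells. The knockout was germline, and no age is used here for these mice. Hashtag antibodies told the mice apart, and each genotype was run on 1 channel of the 10X platform, so genotype and channel cannot be told apart. The comparison asked how the level of these genes in each immune class differed between WT and CaMKK2 KO mice.

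After filtering, 5044 WT and 5631 CaMKK2 KO cells remained, with 1003 to 1660 cells and 11871950 to 20251920 unique molecular identifiers (UMIs) per mouse. The 2 libraries shared 42 cell barcodes, of which 11 were among the cells kept in each. Camkk2 itself was at 27.8 to 39.0 counts per 1000000 UMIs (CPM) over all cells of the WT mice and at 13.2 to 22.8 CPM in the CaMKK2 KO mice. The groups did not overlap, but Camkk2 UMIs were still counted in the CaMKK2 KO mice. Their source was not tested, and the deleted part of the gene is not given in the sources used here. Ptprc, the gene of CD45, was at 467 to 1059 CPM over the mice, and 6 genes of glia, endothelium and fibroblasts summed to 1.36 to 2.77 CPM. Cells were gated into classes by marker genes that held none of the members, and 10 classes had at least 10 cells in at least 3 mice of each genotype. Between 8.82% (WT) and 10.6% (CaMKK2 KO) of the cells fell in no class, and 190 WT and 380 CaMKK2 KO cells among them lay between the macrophage and classical monocyte gates. Neutrophils, plasmacytoid dendritic cells and mast cells or basophils were too few to compare. Levels are UMIs of a gene per 1000000 UMIs of the class in a mouse. Fewer cells with a transcript and fewer transcripts per cell cannot be told apart in such sums. Nothing beyond the hashtags separates the mice of a genotype, and p-values measure the spread between these mice within 1 library per genotype.

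Signals from the interferon-gamma receptor act on promoters through gamma-activated sites (GAS), and those of type I interferons through interferon-stimulated response elements (ISRE). Both GTPase families are classical targets of these pathways and defend cells against intracellular parasites and bacteria. Guanylate-binding proteins coat and lyse vacuoles and pathogens and take part in inflammasome activation. Among the immunity-related GTPases, Iigp1 and Tgtp2 are effectors that load onto vacuoles, whereas Irgm1, Irgm2 and Igtp are regulators that guard the cell's own membranes. In macrophages and microglia these genes are widely used as markers of an interferon response.

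In the GENCODE M21 annotation of GRCm38, Gbp5, Gbp7, Gbp3 and Gbp2 lie side by side within 144 kb on chromosome 3 (chr3:142493978-142638008, plus strand). Gbp4 lies on chromosome 5 (chr5:105115767-105139586, minus strand), 17.6 Mb from Camkk2 on the same chromosome, and its span overlaps Gbp8 and Gbp9 on that strand. Irgm1 (chr11:48861968-48871683, minus strand) and Tgtp2 (chr11:49057194-49064206, minus strand) are near each other on chromosome 11. Igtp (chr11:58199556-58207591, plus strand) overlaps the annotated span of Irgm2 (chr11:58199618-58222782, plus strand). Counts of Gbp4, of Igtp and Irgm2, of Gbp7 (which overlaps Gm43802) and of Tgtp2 (which has the near-identical copy Tgtp1) are therefore uncertain, because reads can be shared with or lost to the neighbor or copy.

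RefSeq promoter windows on GRCm38.p6, from 250 bases before to 50 bases after a gene's start, were read for 8 of the members, and 2 letter patterns were searched on both strands. The ISRE core, 2 copies of GAAA with any 2 bases between them, occurred in a window of all 8 of these genes, against 3.44% of 32851 windows of the genome. The GAS core TTCNNNGAA occurred in Gbp5, Gbp7, Irgm2, Igtp and Tgtp2, 5 of the 8, against 8.30% of windows. The members are counted here by gene and the genome by window. The 9 windows read included a second window of Gbp3, which held neither pattern. In Igtp, Irgm2 and Tgtp2 the GAS match began 11 bases before the ISRE match. The patterns can overlap each other, and a match is a description of the letters only. The 120 bases before the RefSeq start are printed for the guanylate-binding proteins Gbp2 and Gbp7, for Irgm1 and for the 3 genes with the shared arrangement, to show where the matches lie. These starts can differ from the GENCODE spans above. The stretches of Irgm1 and Irgm2 lie inside those spans, and that of Gbp2 partly so. For Irgm2, the bases after the RefSeq start were not found in a GENCODE transcript of the gene. Capitals mark the matches, and each line runs 5′ to 3′ on the strand of the gene.

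Gbp2, chr3:142620543-142620662, plus strand: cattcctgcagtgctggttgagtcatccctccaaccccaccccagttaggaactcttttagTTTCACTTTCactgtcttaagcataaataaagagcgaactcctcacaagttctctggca

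Gbp7, chr3:142530216-142530335, plus strand: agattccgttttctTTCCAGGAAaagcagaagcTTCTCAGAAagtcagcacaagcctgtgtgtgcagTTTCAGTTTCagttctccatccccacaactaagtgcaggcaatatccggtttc

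Irgm1, chr11:48871421-48871540, minus strand: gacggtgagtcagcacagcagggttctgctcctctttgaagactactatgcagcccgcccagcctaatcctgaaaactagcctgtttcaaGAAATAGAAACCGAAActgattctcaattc

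Igtp, chr11:58199436-58199555, plus strand: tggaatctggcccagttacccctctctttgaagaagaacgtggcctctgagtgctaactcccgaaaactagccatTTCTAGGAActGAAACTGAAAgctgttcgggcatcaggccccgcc

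Irgm2, chr11:58214857-58214976, plus strand: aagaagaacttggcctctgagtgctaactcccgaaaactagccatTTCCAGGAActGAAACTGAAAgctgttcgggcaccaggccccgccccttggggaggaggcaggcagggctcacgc

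Tgtp2, chr11:49064213-49064332, minus strand: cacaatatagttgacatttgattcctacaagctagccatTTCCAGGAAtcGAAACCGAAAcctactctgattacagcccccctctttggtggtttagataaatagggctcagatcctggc

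In Irgm1 the ISRE matches start 30 and 24 bases before the start and overlap, in Gbp2 the match starts at 59 bases, and in Gbp7 at 53 bases with GAS matches further upstream.

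In WT mice the members were spread over myeloid and lymphoid classes, each in its own order. Classical monocytes had the highest WT mean of Gbp2 (411 ± 328 CPM, SD, n = 4), Gbp3, Gbp7, Irgm1 and Igtp, and B cells the lowest of Gbp2 (23.6 ± 7.12 CPM, n = 4). Of 180 pairs of neighboring classes in these orders over both genotypes, 174 overlapped between mice. The exceptions in WT mice were mature dendritic cells above DC2 for Gbp2, T cells above NK cells for Irgm2 and NK cells above B cells for Iigp1. Gbp4 had its highest WT means in T cells (86.0 ± 24.0 CPM) and NK cells (78.4 ± 16.3 CPM) and its lowest in microglia (9.33 ± 4.29 CPM), with n = 4 each. Gbp5 was highest in mature dendritic cells, at 149 ± 54.9 CPM (n = 3). Gbp7 was lowest there, at 13.4 ± 16.9 CPM (n = 3). Iigp1 was highest in macrophages (94.4 ± 57.7 CPM, n = 4) and lowest in B cells, where the 4 WT mice had 0 UMIs. In NK cells Iigp1 reached only 2.88 to 10.8 CPM in WT mice and 2.94 to 6.13 CPM in CaMKK2 KO mice, although the macrophages of the latter held 164 to 404 CPM. Of all gated Iigp1 UMIs, macrophages of WT mice held 67.2% and those of CaMKK2 KO mice 48.1%.

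The 10 members had higher mean levels in CaMKK2 KO macrophages than in WT macrophages, by 1.66-fold (Irgm1) to 4.49-fold (Gbp2), but none passed the test across all genes. In macrophages Gbp2 was at 24.1, 113, 152 and 101 CPM in WT mice 1 to 4 and at 236, 656, 178 and 686 CPM in CaMKK2 KO mice 1 to 4. All CaMKK2 KO mice were above all WT mice, with WT mouse 1 far below the others and CaMKK2 KO mice 2 and 4 far above. The log2 fold change of Gbp2 was 2.17 ± 0.58 (SE), with an adjusted p of 0.0791 by the quasi-likelihood test of edgeR with Benjamini-Hochberg adjustment. Gbp5, which promotes inflammasome assembly, was at 5.86, 24.6, 37.0 and 36.3 CPM in WT and at 60.0, 125, 45.8 and 147 CPM in CaMKK2 KO mice. The groups did not overlap, and the log2 fold change was 1.85 ± 0.53 (edgeR adjusted p = 0.0949). Iigp1, an effector (chr18:60376027-60392634, plus strand), was at 16.6, 87.1, 148 and 126 CPM in WT and at 243, 404, 164 and 313 CPM in CaMKK2 KO mice. Its groups did not overlap either, with a log2 fold change of 1.57 ± 0.53 and an edgeR adjusted p of 0.136. The genotypes were closer together for 2 regulators, with Irgm1 at 35.2 to 142 CPM in WT and 86.6 to 243 CPM in CaMKK2 KO mice and Irgm2 at 7.47 to 34.9 and 24.4 to 53.8 CPM. Igtp, the third regulator, had a log2 fold change of 1.46 ± 0.45 (edgeR adjusted p = 0.109). That was above the values of Gbp3 (1.11), Gbp7 (1.06) and the effector Tgtp2 (1.15).

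In macrophages, 0 of the 10 members were called at an adjusted p of 0.05, while 2.57% of the 11166 genes tested were called. At an unadjusted p of 0.05, 7 members passed, against 21.1% of all genes. The members' median log2 fold change was 1.31, and that of all genes was −0.08. In 4 members (Gbp2, Gbp4, Gbp5 and Iigp1) every CaMKK2 KO mouse was above every WT mouse, which held for 4.33% of all genes tested. DESeq2 called 3 members in macrophages, Gbp2, Gbp3 and Gbp7, and 6.12% of all genes, and the edgeR count rose to 2 (Gbp2 and Gbp7) without CaMKK2 KO mouse 3, when 3.93% of all genes were called. The summed level of 6 classical monocyte markers in these macrophages was 756 to 1158 CPM in WT and 1081 to 2685 CPM in CaMKK2 KO mice, with no marker at 0, and that of 6 microglia markers was 316 to 430 and 114 to 249 CPM. The 7 macrophage markers themselves summed to 18306 to 19005 CPM in WT and 12962 to 17861 CPM in CaMKK2 KO mice, and the part of these values in the result was not tested. The graph clusters that held the gated cells were also unequal in genotype, counted over all their cells: the cluster with 877 gated macrophages held 864 WT and 334 CaMKK2 KO cells, one with 325 held 321 and 8, and one with 416 held 74 and 863. The cluster with 416 gated macrophages was named classical monocyte, as was one with 150 that held 48 WT and 949 CaMKK2 KO cells. Macrophages taken from graph clusters thus left out these cells. With macrophages taken in this way, all 10 log2 fold changes stayed positive but were smaller, at 1.23 for Gbp2, 0.63 for Gbp5, 0.91 for Iigp1, 0.70 for Igtp, 0.18 for Irgm1 and 0.20 for Tgtp2. When the macrophage and monocyte gates and the cells between them were joined into 1 class, Gbp2 had a log2 fold change of 1.89 ± 0.75. In that class 0 members were called, while 106 genes were called higher and 123 lower of 11615.

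**Figure D1:**
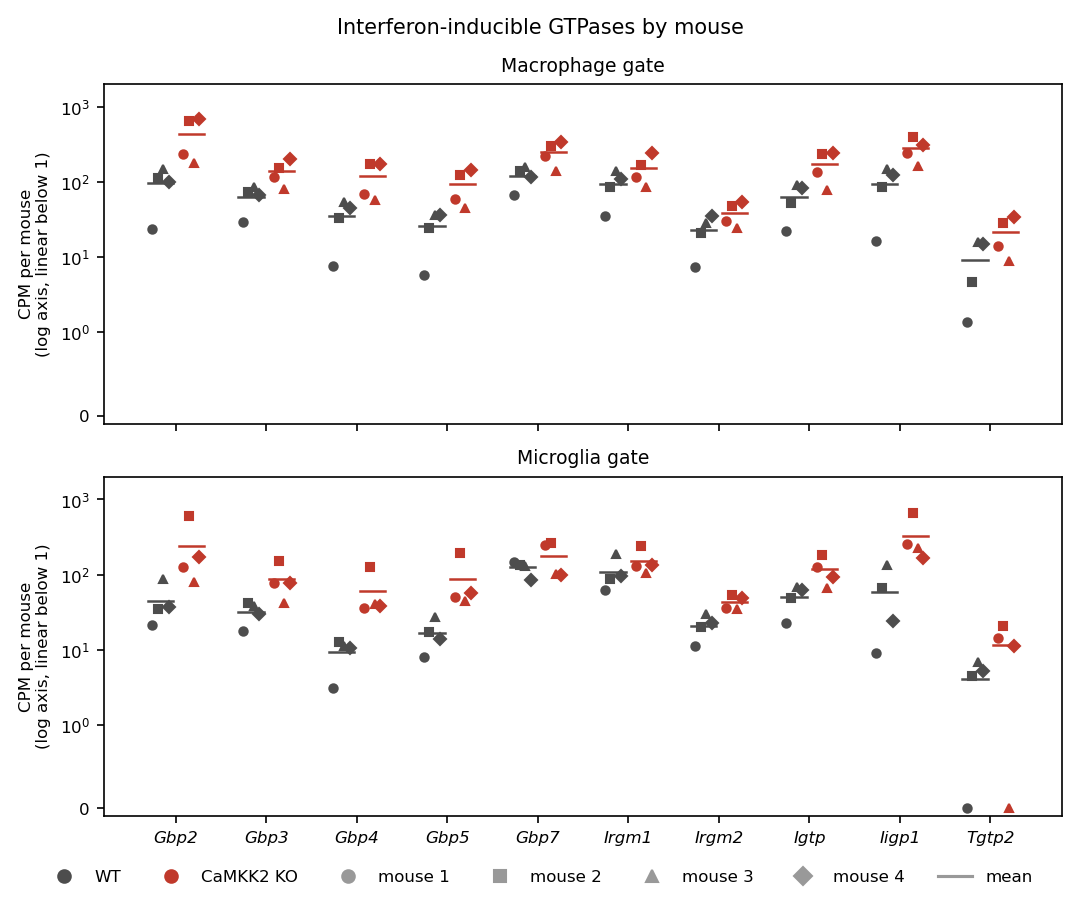
Level of each member (CPM, log axis that is linear below 1) in the macrophage gate (top) and the microglia gate (bottom), with 1 point per mouse, shaped by mouse number and colored by genotype, and a line at the mean. In macrophages WT mouse 1 was the lowest WT mouse and CaMKK2 KO mouse 3 the lowest CaMKK2 KO mouse for all 10 members.

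In microglia, the resident macrophages of the brain, 4 of the 9 members tested were higher in CaMKK2 KO mice, namely Gbp2, Gbp4, Gbp5 and Iigp1. None was called lower, and 1.15% of the 8859 genes tested were called. Gbp4 was at 3.03, 12.5, 11.3 and 10.4 CPM in WT mice 1 to 4 and at 35.5, 125, 40.4 and 37.6 CPM in CaMKK2 KO mice 1 to 4. The groups did not overlap, and CaMKK2 KO mouse 2 stood far above the others. The log2 fold change of Gbp4 was 2.76 ± 0.49 (edgeR adjusted p = 0.00987), and the call held in each of the 15 alternatives in which the gene was tested. Gbp5 rose from a WT range of 8.09 to 27.2 CPM to 44.7 to 192 CPM (log2 fold change 2.50 ± 0.48, edgeR adjusted p = 0.0169). Gbp2 was at 21.2, 34.5, 86.1 and 36.4 CPM in WT and at 125, 596, 78.6 and 170 CPM in CaMKK2 KO mice. The groups overlapped through WT mouse 3 and CaMKK2 KO mouse 3, and the log2 fold change was 2.60 ± 0.57 (edgeR adjusted p = 0.0383). Iigp1 was at 9.10, 67.1, 136 and 24.2 CPM in WT and at 258, 652, 223 and 164 CPM in CaMKK2 KO mice, without overlap (log2 fold change 2.62 ± 0.59, edgeR adjusted p = 0.0470). Among the other members, Igtp, Irgm2 and Gbp3 had log2 fold changes of 1.17 to 1.44, and Gbp7 and Irgm1 of 0.46 and 0.56, and none of these passed with edgeR. DESeq2 called 6 members in microglia, adding Gbp3, Igtp and Irgm2 and not calling Iigp1, and 1.68% of all genes. Tgtp2 had fewer than 50 UMIs in microglia and was not tested.

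The median log2 fold change of the 9 members in microglia was 1.44, against −0.13 over all genes. TMM scaling, which moved the latter to −0.01, called the same 4 members, while 73 genes were called higher and 42 lower of 8859. Every CaMKK2 KO mouse was above every WT mouse for 4 of the 9 members (Gbp4, Gbp5, Irgm2 and Iigp1) and for 2.57% of all genes. Such a share of all genes was counted only in macrophages and microglia, so groups that do not overlap in other classes have no reference. The WT microglia numbered 37 to 142 cells per mouse and the CaMKK2 KO microglia 26 to 60. The count of 4 fell to 2 without CaMKK2 KO mouse 2, CaMKK2 KO mouse 4 or WT mouse 1, and to 1 without WT mouse 2 or WT mouse 4, and it was 6 without CaMKK2 KO mouse 3. Genes called higher and lower were 48 and 54 of 8859 with all mice. Without CaMKK2 KO mouse 2, 4 or 3 they were 42 and 31 of 8738, 27 and 23 of 8725 and 72 and 98 of 8556. Without WT mouse 1, 2 or 4 they were 36 and 51 of 8065, 36 and 27 of 8253 and 40 and 46 of 8655. The 6 classical monocyte markers summed to 87.4 to 197 CPM in WT microglia, where Vcan was at 0, and to 321 to 480 CPM in CaMKK2 KO microglia, and their part in the result was not tested.

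**Figure D2:**
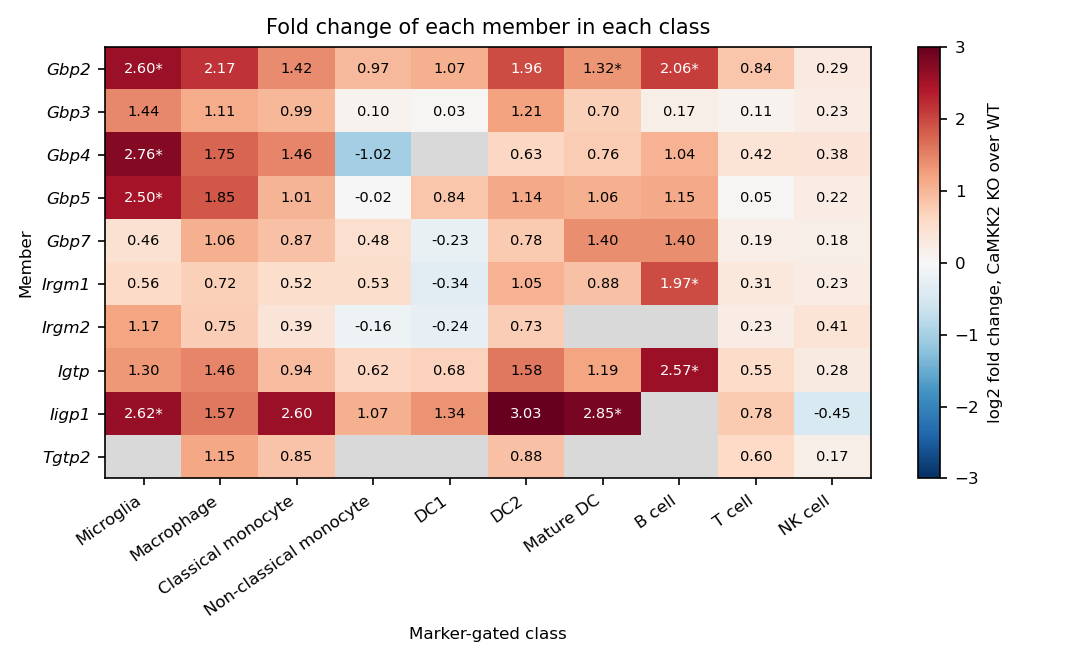
Log2 fold change (CaMKK2 KO over WT) of each member (rows) in each marker-gated class (columns), colored from blue (lower in CaMKK2 KO) to red (higher). Stars mark an edgeR adjusted p under 0.05 over all genes of the class, and gray marks members with fewer than 50 UMIs that were not tested; 9 values are starred, all of them above 0.

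In classical monocytes, the blood-derived precursors of tumor macrophages, all 10 members had positive log2 fold changes, from 0.39 (Irgm2) to 2.60 (Iigp1), and 0 were called, against 1.61% of 9458 genes. At an unadjusted p of 0.05, 2 members passed with edgeR, against 15.2% of all genes. DESeq2 called 0 members, while it called 179 genes higher and 178 lower. Gbp2 was at 16.9, 360, 816 and 449 CPM in WT and at 927, 1682, 351 and 1485 CPM in CaMKK2 KO monocytes. CaMKK2 KO mouse 3 was below 3 of the 4 WT mice, and the edgeR adjusted p was 0.399. Iigp1 was the member with the highest log2 fold change, at 0, 16.4, 52.9 and 60.6 CPM in WT and at 137, 381, 67.1 and 266 CPM in CaMKK2 KO monocytes. Its groups did not overlap, with a log2 fold change of 2.60 ± 0.67 and an edgeR adjusted p of 0.0829. Without CaMKK2 KO mouse 3 the count of members called in classical monocytes was 1, while 121 genes were called higher and 107 lower of 9315. The sign of Irgm2 turned in 1 of 16 alternatives, to −0.03. The 6 markers of the class itself summed to 11200 to 18516 CPM in WT and 9538 to 10067 CPM in CaMKK2 KO mice, without overlap. The graph clusters that held the gated monocytes were unequal in genotype, counted over all their cells: the cluster with 704 gated monocytes held 48 WT and 949 CaMKK2 KO cells, one with 678 held 515 and 215, and one with 289 held 74 and 863. The part of these values in the result was not tested.

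In type 2 dendritic cells (DC2), which present antigen to CD4 T cells, the 10 log2 fold changes were again positive, from 0.63 (Gbp4) to 3.03 (Iigp1), though Gbp4 and Irgm2 each turned sign in 1 of 14 alternatives. None of the 10 was called, against 0.5% of 7206 genes, while 7 passed at an unadjusted p of 0.05, against 12.6% of all genes. DESeq2 called Iigp1, among 36 genes called higher and 45 lower. DC2 of WT mice held 21.3, 8.24, 27.6 and 83.6 CPM of Iigp1, and those of CaMKK2 KO mice 1 to 3 held 151, 576 and 182 CPM. The CaMKK2 KO mice were all above the WT mice, with a log2 fold change of 3.03 ± 0.61 and an edgeR adjusted p of 0.0566. Mouse 4 of this genotype had fewer than 10 DC2 and was not used. Without CaMKK2 KO mouse 3, which left 2 CaMKK2 KO mice, 7 of the 10 members were called, against 3.69% of all genes. Without WT mouse 4 the count was 1, while 10 genes were called higher and 9 lower of 6526. Gbp2 of the DC2 was at 62.2 to 176 CPM in WT mice and at 466, 688 and 78.0 CPM in CaMKK2 KO mice. In DC2 the 6 classical monocyte markers summed to 571 to 1637 CPM in WT mice and, with Vcan at 0, to 2081 to 3210 CPM in CaMKK2 KO mice, and the 7 macrophage markers to 116 to 401 CPM and, with Mertk at 0, to 97.5 to 108 CPM. Their part in the result was not tested.

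Mature dendritic cells, which have upregulated Ccr7 and migrate to lymph nodes, were compared in 3 WT and 4 CaMKK2 KO mice. Of the 8 members tested, 2 were called, both higher in CaMKK2 KO mice, against 0.56% of 4104 genes. Gbp2 in mature dendritic cells was at 187, 199 and 211 CPM in WT mice 2 to 4 and at 613, 542, 320 and 511 CPM in CaMKK2 KO mice 1 to 4. The groups did not overlap, and the log2 fold change was 1.32 ± 0.24 (edgeR adjusted p = 0.0163). Iigp1 was at 4.06, 31.2 and 33.0 CPM in WT and at 175, 150, 32.8 and 263 CPM in CaMKK2 KO mice, which overlapped through CaMKK2 KO mouse 3 (log2 fold change 2.85 ± 0.61, edgeR adjusted p = 0.0381). These values rest on 15 to 35 cells per mouse. The count of 2 fell to 0 without CaMKK2 KO mouse 2 or any of the 3 WT mice and to 1 without CaMKK2 KO mouse 4. Genes called higher and lower were 5 and 6 of 3559 without CaMKK2 KO mouse 2 and 6 and 12 of 3546 without CaMKK2 KO mouse 4. Without WT mouse 2, 3 or 4 they were 3 and 7 of 3747, 4 and 8 of 3732 and 2 and 3 of 3880. With mature dendritic cells taken from graph clusters, 0 members were called and the log2 fold change of Gbp2 was 0.65 ± 0.28. There 17 genes were called higher and 43 lower of 3811.

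In type 1 dendritic cells (DC1), which cross-present antigen to CD8 T cells, 5 of the 8 members tested had positive log2 fold changes and 0 were called, against 0.559% of 5369 genes. DESeq2 called 0 members, with 19 genes called higher and 11 lower, and 2 members passed at an unadjusted p of 0.05, against 8.08% of all genes. Iigp1 had the highest value, 1.34 ± 0.45, with DC1 levels of 37.4 to 99.6 CPM in WT and 56.5 to 393 CPM in the 3 CaMKK2 KO mice used. Without CaMKK2 KO mouse 3, which left 2 CaMKK2 KO mice, 1 member was called, while 16 genes were called higher and 9 lower of 4923 tested. In non-classical monocytes, which patrol vessels, 6 of 9 members had positive values, and 0 were called, against 0.313% of 3833 genes. None passed at an unadjusted p of 0.05 either, against 6.68% of all genes. DESeq2 called 0 members there too, with 6 genes called higher and 10 lower. WT mouse 3 stood apart, with 650 CPM of Gbp2 in its 17 non-classical monocytes beside 21.7 and 14.9 CPM in WT mice 2 and 4. Without WT mouse 3, which left 2 WT mice, 3 members were called, while 20 genes were called higher and 11 lower of 3555 tested.

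In B cells, 3 of the 7 members tested were higher in CaMKK2 KO mice, namely Igtp, Gbp2 and Irgm1, against 2.68% of 4361 genes called. Igtp was at 11.1, 24.2, 28.5 and 48.2 CPM in WT and at 87.9, 174, 55.5 and 257 CPM in CaMKK2 KO B cells. The groups did not overlap, and the log2 fold change was 2.57 ± 0.46 (edgeR adjusted p = 0.00496). Irgm1 was at 11.1, 66.4, 62.7 and 64.3 CPM in WT and at 111, 293, 79.3 and 337 CPM in CaMKK2 KO B cells, also without overlap (log2 fold change 1.97 ± 0.43, edgeR adjusted p = 0.0172). WT mouse 1 was far below the other WT mice for Irgm1. The share of all genes without overlap was not counted in B cells. Gbp2 was at 16.1 to 33.2 CPM in WT and at 31.7 to 199 CPM in CaMKK2 KO B cells, with a log2 fold change of 2.06 ± 0.48 (edgeR adjusted p = 0.0255). Gbp3 had a log2 fold change of 0.17 ± 0.37, whose sign turned in 3 of 15 alternatives. Iigp1, Irgm2 and Tgtp2 had fewer than 50 UMIs in B cells. The B cells numbered 15 to 87 per mouse. The count of 3 fell to 0 without WT mouse 2 and to 1 without WT mouse 1, CaMKK2 KO mouse 2 or CaMKK2 KO mouse 4, and it rose to 5 without CaMKK2 KO mouse 3, when 5.74% of all genes were called. Genes called higher and lower were 18 and 7 of 3709 without WT mouse 2 and 30 and 14 of 4181 without WT mouse 1. They were 24 and 7 of 3684 without CaMKK2 KO mouse 2 and 28 and 13 of 3491 without CaMKK2 KO mouse 4. The 7 macrophage markers summed to 256 to 454 CPM in WT B cells and to 95.2 to 191 CPM in CaMKK2 KO B cells, none at 0. The 6 classical monocyte markers, with Vcan at 0, went the other way with overlap, at 378 to 1111 CPM in WT and 634 to 1303 CPM in CaMKK2 KO B cells. The part of these values in the result was not tested.

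In T cells the members differed less, with log2 fold changes of 0.05 (Gbp5) to 0.84 (Gbp2) and 0 of 10 called, against 1.99% of 9807 genes. At an unadjusted p of 0.05, 3 members passed, against 15.9% of all genes. DESeq2 called Iigp1, among 80 genes called higher and 133 lower. The sign of Gbp5 turned in 3 of 16 alternatives, to as low as −0.10 on the log2 scale. In T cells 1 member was called when WT mouse 1 or CaMKK2 KO mouse 3 was left out. Genes called higher and lower were then 138 and 100 of 9782 and 119 and 81 of 9425. Gbp2 in T cells was at 36.8, 27.3, 38.1 and 33.3 CPM in WT and at 44.2, 76.2, 38.4 and 89.9 CPM in CaMKK2 KO mice (log2 fold change 0.84 ± 0.25, edgeR adjusted p = 0.107). Iigp1 was at 7.37, 50.6, 52.7 and 53.8 CPM in WT and at 91.8, 76.6, 70.8 and 102 CPM in CaMKK2 KO T cells (log2 fold change 0.78 ± 0.21, edgeR adjusted p = 0.0665). Neither gene overlapped between the groups, Gbp2 by a margin of 38.1 to 38.4 CPM, and WT mouse 1, with 35 T cells, was far below the others for Iigp1. The share of all genes without overlap was not counted in T cells.

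Within the T cells, the level of Iigp1 differed between regulatory and CD8 T cells. Regulatory T cells (Treg) held 222 to 259 CPM in the 3 WT mice with enough cells and 134 to 575 CPM in CaMKK2 KO mice. CD8 T cells held 0 to 10.3 CPM in WT and 4.65 to 13.3 CPM in CaMKK2 KO mice, below every Treg value. The 4 WT mice had 17, 113, 146 and 121 CD8 T cells and the CaMKK2 KO mice 126, 48, 129 and 39. Treg numbered 6, 37, 27 and 36 in WT and 33, 25, 80 and 17 in CaMKK2 KO mice. CD4 T cells outside the Treg numbered 0, 15, 14 and 14 in WT and 37, 97, 53 and 45 in CaMKK2 KO mice, and their Iigp1 level is not given here. The makeup of the T-cell class thus moved with the mouse, and its part in the Iigp1 level of the class was not tested. Gbp7 was also higher in Treg, at 325 to 485 CPM over both genotypes, than in CD8 T cells, at 84.1 to 202 CPM. Igtp in Treg was at 298 to 353 CPM in WT and at 239 to 508 CPM in CaMKK2 KO mice. Within CD8 T cells, 8 of the 10 members had positive log2 fold changes, with a median of 0.25. In Treg 5 of 9 were positive (median 0.18) and in CD4 T cells 3 of 9 (median −0.11), each with 3 WT mice. In each subset 0 members were called. Genes called higher and lower were 71 and 57 of 8733 in CD8 T cells, 11 and 17 of 5327 in Treg and 17 and 18 of 5670 in CD4 T cells.

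NK cells had log2 fold changes from −0.45 (Iigp1) to 0.41 (Irgm2). None of the 10 was called, against 3.12% of 9467 genes, and 1 passed at an unadjusted p of 0.05, against 16.8% of all genes. DESeq2 called 0 members, while it called 146 genes higher and 145 lower. Gbp2 in NK cells was at 14.8, 16.7, 26.8 and 38.3 CPM in WT and at 34.1, 33.8, 26.2 and 28.2 CPM in CaMKK2 KO mice, which overlapped. Gbp4 was at 59.4 to 99.1 CPM in WT and at 80.5 to 114 CPM in CaMKK2 KO mice (log2 fold change 0.38 ± 0.15, edgeR adjusted p = 0.221). Without CaMKK2 KO mouse 3, 1 member was called in NK cells, while 635 genes were called higher and 260 lower of 9047.

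Whether the genotype difference in macrophages was larger than in another class was tested with the class by genotype term of edgeR, with mouse as a block. Against NK cells, 1 of 10 members was called, against 1.33% of 9113 genes, with all 10 terms positive and a median of 0.93 beside −0.14 over all genes. That member was Igtp, whose difference was larger in macrophages by 1.05 ± 0.24 on the log2 scale (adjusted p = 0.0456). Against T cells, 1 of 10 was called, against 1.02% of 9330 genes, again with all 10 terms positive and a median of 0.71. That member was Gbp5, with a term of 1.40 ± 0.27 (adjusted p = 0.0252). The count against NK cells was 0 without WT mouse 2, 3 or 4 or CaMKK2 KO mouse 1, 2 or 4, and 6 without CaMKK2 KO mouse 3, when 6.15% of all genes were called. The count against T cells was 0 without WT mouse 2, 3 or 4 or CaMKK2 KO mouse 4, and 2 without CaMKK2 KO mouse 3. Shares of all genes are not given here for these counts against T cells. Of the other classes, 0 members were called against B cells (2.23% of genes), classical monocytes (0.234%), DC1 (0.413%), DC2 (0.28%), mature dendritic cells (0.249%), microglia (0.0684%) and non-classical monocytes (0%). At an unadjusted p of 0.05, 4, 2, 1, 2, 1, 1 and 2 members passed in these comparisons, in the same order, against 17.2%, 10.8%, 8.62%, 11.8%, 11.1%, 9.51% and 6.99% of all genes. The terms were positive for 4 of 7 members against B cells, 8 of 10 against classical monocytes and 8 of 8 against DC1. They were positive for 4 of 10 against DC2 and 4 of 8 against mature dendritic cells. Against microglia 3 of 9 were positive, and against non-classical monocytes 8 of 9. The medians were 0.15, 0.19, 0.74, −0.13, 0.05, −0.20 and 0.55, beside −0.05, −0.06, −0.07, −0.10, −0.13, 0.04 and −0.02 over all genes. Against B cells 1 member was called without CaMKK2 KO mouse 1 or CaMKK2 KO mouse 3. Genes called with positive and negative terms were then 81 and 138 of 3897 and 66 and 117 of 4062.

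In several classes the same mice were the lowest of their genotype for most members. In macrophages and in classical monocytes, WT mouse 1 had the lowest level of the 4 WT mice for 10 of 10 members, and CaMKK2 KO mouse 3 the lowest of the 4 CaMKK2 KO mice for 10 of 10. WT mouse 3 was the highest WT mouse for 9 of 10 members in both classes. CaMKK2 KO mouse 3 was also the lowest of its group for 10 of 10 members in T cells, 9 of 10 in NK cells and 8 of 10 in B cells, and WT mouse 1 for 8, 7 and 7 of 10. The order was not the same in every class: WT mouse 3 was the highest WT mouse for 4 of 10 members in T cells, 1 of 10 in B cells and 2 of 10 in DC1, and WT mouse 1 the lowest for 4 of 10 in DC1. The mean of log2(CPM + 1) over the members in macrophages was 3.98, 5.56, 6.20 and 5.98 in WT mice 1 to 4 and 6.55, 7.38, 6.05 and 7.53 in CaMKK2 KO mice 1 to 4. CaMKK2 KO mouse 3 thus lay within the range of the WT mice. These mice were singled out after their values had been seen, and the classes of a mouse share its library and tumor.

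**Figure D3:**
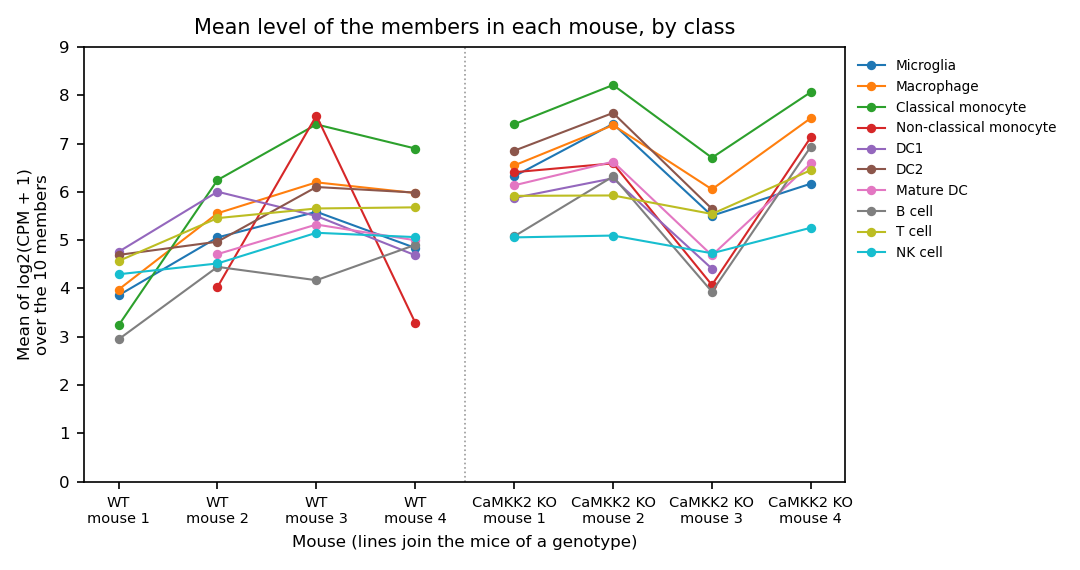
Mean over the 10 members of log2(CPM + 1) in each of the 8 mice (horizontal axis), with 1 line per class, broken between genotypes. WT mouse 1 and CaMKK2 KO mouse 3 are low in most classes, and the NK cell line is the flattest, at 4.29 to 5.26.

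Ifng, the gene of interferon-gamma, was followed in T and NK cells, its main textbook sources. In T cells Ifng was at 66.3, 230, 294 and 167 CPM in WT mice 1 to 4 and at 308, 400, 231 and 408 CPM in CaMKK2 KO mice 1 to 4. In NK cells Ifng was at 7.005, 57.1, 110 and 56.7 CPM in WT and at 99.1, 201, 49.0 and 165 CPM in CaMKK2 KO mice. In both classes WT mouse 1 was the lowest WT mouse, WT mouse 3 the highest WT mouse and CaMKK2 KO mouse 3 the lowest CaMKK2 KO mouse. Between genotypes, Ifng had a log2 fold change of 0.71 ± 0.26 in T cells and 1.10 ± 0.47 in NK cells, with edgeR adjusted p-values of 0.191 and 0.239. The share of T cells among all cells of a mouse was 3.49% in WT mouse 1, 14.8% to 16.8% in the other WT mice and 11.9% to 21.3% in CaMKK2 KO mice. Whether these values account for the levels of the members was not tested.

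To see how many cells carried the transcripts, macrophages, T cells and NK cells were thinned to 3000 UMIs each, which left out 36 of 1689 WT and 39 of 1310 CaMKK2 KO macrophages. After thinning, Gbp2 was seen in 4.81% to 24.5% of the macrophages of WT mice and in 28.6% to 66.8% of those of CaMKK2 KO mice. The means were 16.2% ± 8.31 and 48.9% ± 19.9 (SD, n = 4), with p = 0.0286 by a two-sided exact permutation test, the smallest p that 4 mice against 4 can give. Before thinning, the shares were 38.4% ± 17.1 and 78.3% ± 12.97. Iigp1 was seen in 11.9% ± 5.94 of WT and 33.9% ± 10.7 of CaMKK2 KO macrophages (exact permutation p = 0.0286, n = 4), and in 25.6% ± 11.4 and 59.0% ± 10.3 before thinning. In NK cells, whose unthinned median depth was 8565 UMIs in WT and 6485 UMIs in CaMKK2 KO mice against 16298 and 15996 UMIs in macrophages, Iigp1 was seen in 1.77% and 1.15% of thinned cells. The mean macrophage shares of Iigp1 were above these means. The lowest WT mouse had 3.61% in macrophages, and the highest WT mouse had 3.05% in NK cells. Of the 10 members in macrophages, 4 reached the smallest p (Gbp2, Gbp3, Gbp7 and Iigp1), and the others ranged from 0.0571 to 0.2. Shares after thinning were tested only for the members, so counts at the smallest p have no share of all genes as a reference. With Benjamini-Hochberg adjustment over the 30 tests of the members in macrophages, T cells and NK cells, the smallest adjusted p was 0.171. Macrophages with at least 5 of the 10 members made up 5.20% ± 3.04 of WT and 24.3% ± 12.9 of CaMKK2 KO macrophages, and those with none 38.4% ± 16.99 and 15.4% ± 10.6.

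In T cells at the same depth, Gbp2 was seen in 11.6% ± 1.81 of WT and 17.5% ± 7.94 of CaMKK2 KO cells (exact permutation p = 0.171, n = 4), and in 23.0% and 35.5% before thinning. Tgtp2 was the single member that reached the smallest p in T cells, with 1.47% ± 1.17 and 5.16% ± 2.83 (exact permutation p = 0.0286, n = 4). Tgtp2 was seen in 2.08% and 3.74% of the thinned NK cells and, before thinning, in 6.29% and 13.2% of T cells. Gbp7 and Igtp were the members seen most often in T cells, in 37.2% and 26.6% of WT and 41.9% and 38.7% of CaMKK2 KO cells. When T cells were thinned to 6000 UMIs instead, Tgtp2 no longer reached the smallest p (exact permutation p = 0.0571). Its shares were then 4.10% ± 2.95 in WT and 7.76% ± 1.43 in CaMKK2 KO mice, and the groups overlapped.

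**Figure D4:**
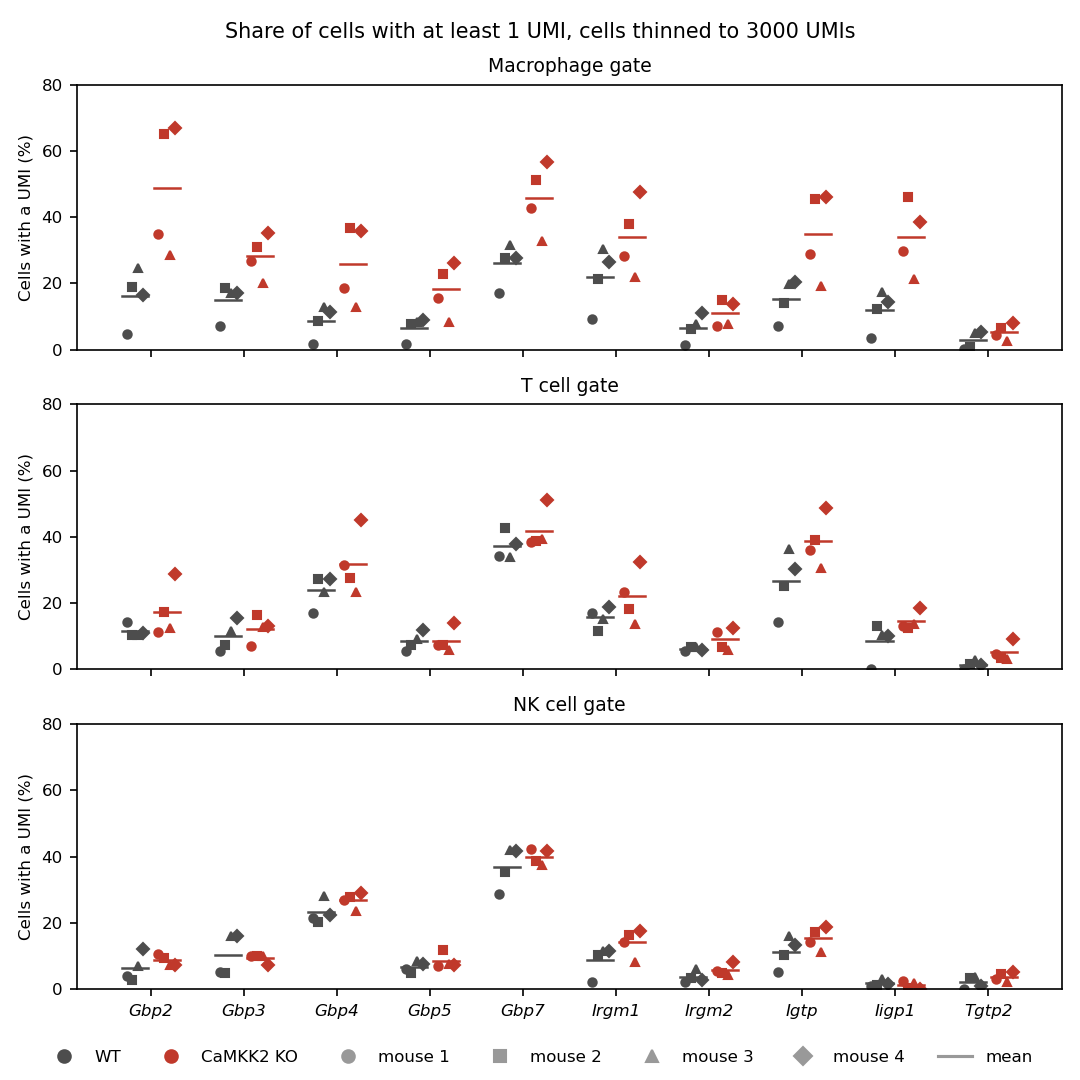
Share of cells with at least 1 UMI of each member after each cell was thinned to 3000 UMIs, in macrophages (top), T cells (middle) and NK cells (bottom), with 1 point per mouse and a line at the mean of a genotype. The points of the 2 genotypes separate for several members in macrophages and mostly overlap in T and NK cells.

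Other genes of the pathway were followed by lists, and the genes named here other than Ciita were picked with their values in view. In macrophages, 0 of the 7 other GTPases tested (of 10 listed) were called, and all 7 had positive log2 fold changes with a median of 0.97. Among them Ifi47 was at 41.4 to 179 CPM in WT and 117 to 307 CPM in CaMKK2 KO macrophages, and Gbp8 at 14.6 to 55.6 and 43.4 to 124 CPM. Of 9 genes of interferon-gamma signalling, from ligand and receptors to Irf1 and Socs1, 0 were called, with a median of 0.67. The receptor genes Ifngr1 and Ifngr2 had log2 fold changes of −0.22 ± 0.18 and −0.03 ± 0.11. Of 8 genes of type I interferon signalling, 0 were called, with a median of 0.48. Of the 8 other targets of interferon-gamma tested, 1 was called, namely Ciita, the transactivator of MHC class II genes. Ciita was at 5.06, 37.6, 36.8 and 36.3 CPM in WT and at 193, 272, 165 and 290 CPM in CaMKK2 KO macrophages (log2 fold change 3.00 ± 0.49, edgeR adjusted p = 0.0124). The 7 autophagy conjugation genes, whose products help to load these GTPases onto vacuoles, had a median of −0.03, with 0 called. The 6 inflammasome genes had a median of 0.39, with 0 called, and among them Casp4, which acts with guanylate-binding proteins on bacterial lipopolysaccharide, had a log2 fold change of 1.01 ± 0.28 (edgeR adjusted p = 0.0877). All genes tested in macrophages had a median of −0.08.

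The genes outside the family with a pattern most like the mean of the members over the 20 combinations of class and genotype were Parp14, Casp4, 1600014C10Rik, Zbp1 and Daxx, with Ifit1, Cxcl10, Dtx3l and Rnf213 also among the 10 most alike. Their Pearson correlation with the members' mean of log2(CPM + 1) was 0.83 for Parp14 and 0.74 for Rnf213, among 2666 genes tested in every class. The points share the 2 libraries and the mice. Among the members, Gbp2 and Gbp5 were most alike over the same 20 points (r = 0.91), and Gbp4 and Irgm1 least (r = −0.12).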

How the data were processed

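Live CD45+ cells of WT and CaMKK2 KO mice were sequenced with the 10X 3' v3.1 kit. The authors deposited raw UMI counts per gene and cell and hashtag counts per cell, made per the labels with bcl2fastq 2.20, Cell Ranger 4.0.0 and STAR 2.7.5c on mm10. Mice were assigned with HTODemux of Seurat 5.3.0 at a quantile of 0.99, which also removed hashtag doublets. Cells with under 200 genes or beyond 3 median absolute deviations and the cells with the highest Scrublet doublet scores (222 WT, 169 CaMKK2 KO) were left out. The number of the latter was set at 1 for every 3 hashtag doublets (667 WT, 508 CaMKK2 KO), not by Scrublet's own call. Classes were gated by marker scores, by a rule set after the data had been seen. The counts of each class were added up by mouse and compared with edgeR 4.0.16 (quasi-likelihood, total UMIs as library size, genes with at least 50 UMIs, Benjamini-Hochberg over all of them, threshold 0.05) in R 4.3.3. DESeq2 1.42.0 and limma 3.58.1 (pseudocount of 1 CPM) were alternatives. Shares were tested by exact permutation, which for 4 mice against 4 gives at least 0.0286. The edgeR fit was tested on simulated data with the same dispersion for every gene. That test does not cover genes that vary more between mice, and its outcome is not given here. The rule for named genes was all members, the context genes that passed in macrophages, and the 10 genes most like the members; Ifng, Ifngr1, Ifngr2, Ifi47, Gbp8 and Casp4 (as an inflammasome gene) were named outside it, after their values were seen. The members and lists were chosen with earlier results of these data known. Intervals and SEs do not cover differences between the 2 channels. One gene of the context and likeness lists is not reported here.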

Additional observations from a re-analysis of the deposited data

Results flagged for a closer look

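Among 147 groups of 4 mice, 8 held a mouse whose gap to the nearest other mouse exceeded Dixon's 95% critical share of the group's range, and chance gives about 5%. In microglia of CaMKK2 KO mice, mouse 2 had 125 CPM of Gbp4 beside 35.5 to 40.4 CPM in the others, and 192 CPM of Gbp5 beside 44.7 to 57.5 CPM. WT mouse 1 had 11.1 CPM of Irgm1 in B cells beside 62.7 to 66.4 CPM, and 7.37 CPM of Iigp1 in T cells beside 50.6 to 53.8 CPM. WT mouse 3 had 37.4 CPM of Iigp1 in DC1 beside 93.8 to 99.6 CPM. CaMKK2 KO mouse 2 had 2.94 CPM of Iigp1 in NK cells beside 5.63 to 6.13 CPM, and 47.4 CPM of Gbp3 in T cells beside 44.8 to 45.1 CPM. CaMKK2 KO mouse 4 had 167 CPM of Igtp in non-classical monocytes beside 137 to 142 CPM.

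The genotype difference was larger in macrophages than in NK cells for Igtp, by 1.05 on the log2 scale (edgeR adjusted p = 0.0456). For Gbp5 it was larger than in T cells, by 1.40 (edgeR adjusted p = 0.0252). Each was 1 of 10 members called, against 1.33% and 1.02% of genes. The call held in 3 of 10 alternatives for Igtp and in 6 of 10 for Gbp5. Both come from the class by genotype term of edgeR.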

How the results depend on the processing

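The 10 members in macrophages and the 9 in microglia kept the sign of their log2 fold change under each alternative that tested them (16, or 15 for Gbp4 and Irgm2 in microglia). Their size did not hold in macrophages taken from graph clusters, where Gbp2 fell from 2.17 to 1.23 and Gbp5 from 1.85 to 0.63 on the log2 scale. Over 26 single values and 397 alternatives, 324 kept direction and side of the threshold, 55 lost the call, 18 gained one and 0 reversed. These values were the members tested in macrophages and microglia and those called in B cells, mature dendritic cells and the class by genotype terms. The 0 therefore does not extend to other classes. All alternatives kept the sign of 4 of 9 members in non-classical monocytes, 5 of 8 in DC1 and 6 of 7 in B cells. They did so for 7 of 8 in mature dendritic cells, 8 of 10 in DC2 and 9 of 10 in classical monocytes, NK cells and T cells. Without the filter on low counts, 6 members were called in B cells, 1 in classical monocytes, 2 in DC1, 7 in DC2, 3 in macrophages, 7 in microglia, 1 in non-classical monocytes and 3 in T cells, while the share of all genes called was 2.14%, 2.10%, 0.855%, 2.57%, 2.36%, 2.60%, 0.674% and 3.65%. With cells weighted equally in limma, 0 were called in B cells, 0 in mature dendritic cells and 3 in microglia. Genes called higher and lower were then 9 and 6 of 4361, 4 and 8 of 4104 and 40 and 47 of 8859, in the same order. DESeq2 called 1 in DC2, 3 in macrophages, 6 in microglia, 1 in mature dendritic cells (of 2 tested) and 1 in T cells. Genes it called higher and lower were 36 and 45 of 7206 in DC2 and 424 and 259 of 11166 in macrophages. They were 96 and 53 of 8859 in microglia, 6 and 22 of 4104 in mature dendritic cells and 80 and 133 of 9807 in T cells. With outlying cells kept, 1 was called in DC2, while 31 genes were called higher and 33 lower of 7360. With graph clusters, 1 was called in DC2, 0 in mature dendritic cells and 1 in non-classical monocytes. Genes called higher and lower were then 78 and 57 of 8956, 17 and 43 of 3811 and 16 and 12 of 4012. With at least 200 UMIs, which leaves fewer genes, 1 was called in mature dendritic cells, 1 in microglia and 1 in macrophages against B cells. Genes called with positive and negative values were then 5 and 6 of 1250, 30 and 43 of 4834 and 27 and 37 of 1073. TMM scaling gave 2 in macrophages against NK cells, for which no share of all genes is given here. The causes were not tested. The share of T cells with Gbp2 differed by 8.16 percentage points at 6000 UMIs (exact permutation p = 0.0286), against 5.85 at 3000. That with Tgtp2 differed by 3.66 percentage points at 6000 UMIs (exact permutation p = 0.0571), against 3.69 at 3000.

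Leaving out each mouse in turn gave 0 to 5 members called in B cells, 0 to 1 in classical monocytes, 0 to 1 in DC1, 0 to 7 in DC2, 0 to 2 in macrophages, 0 to 2 in mature dendritic cells, 1 to 6 in microglia, 0 to 1 in NK cells, 0 to 3 in non-classical monocytes and 0 to 1 in T cells. For macrophages it gave 0 to 1 against B cells, 0 to 6 against NK cells and 0 to 2 against T cells. The share differences ranged from 26.6 to 39.4 for Gbp2 and 18.0 to 26.2 for Iigp1 in macrophages, and from 2.11 to 7.91 for Gbp2 in T cells. The settings without shared barcodes and with joined gates were chosen after seeing the data. No paired analysis was possible because the hashtag numbers name different animals and each genotype is 1 library.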
